A study of Mus musculus with 14 samples.

Results

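The comparison set line 1398M1, grown from a liver metastasis, against line 1398P2, grown from a lung tumor, in mouse small cell lung cancer. Both lines carry the genotype RPR2;Nfibf/f, so the RPR2 alleles and the Nfib allele are shared by the tumor line and by the metastasis line. Each line had 2 ATAC-seq libraries, and these 4 of the 14 libraries of the study were chosen by their labels, as the lines 1398M1 and 1398P2. The study profiled 7 lines in all, and its title asks which mechanisms of metastasis depend on NFIB. The other lines used below are 1399M4 from a liver metastasis and 1399P1 from a lung tumor, both RPR2;Nfibf/f, and the RPR2 lines 1373M1 from a liver metastasis and 12N1G and N2N1G from lymph node metastases. Each tissue is represented here by 1 line, so tissue and line cannot be told apart. The labels give neither the number of clones in a line nor whether the lines of a number come from the same animal.

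In ATAC-seq a transposase places sequencing adapters in accessible DNA, so peaks mark open promoters and enhancers. Small cell lung cancer is a neuroendocrine tumor that commonly lacks the tumor suppressors RB1 and p53. Mice called RPR2 lose Rb1, Trp53 and the related gene Rbl2, and in Nfibf/f animals the gene of the transcription factor NFIB, linked to metastasis of this cancer, can be deleted by Cre. In epithelial cells, E-cadherin, claudins and keratins hold neighbors together, and the ESRP proteins set the epithelial pattern of splicing.

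The deposited lists held 67712 and 75733 peaks in replicates 1 and 2 of 1398M1, and 78843 and 33519 peaks in those of 1398P2. Depth was read from the floor, the smallest local background among the summits of a library, which was 0.752 and 0.988 fragments per bp in 1398M1 and 1.13 and 0.507 in 1398P2. The 10 libraries of the other lines had 64975 to 84199 peaks and floors of 0.632 to 0.999. Replicate 2 of 1398P2 thus had the shortest list and the lowest floor of the 14, and absence of a peak there means absence at that depth. The start of Nfib had scaled pileups (defined below) of 48.2 and 62.3 in 1398M1 and 45.5 and 44.8 in 1398P2, and the gene with its flanks held 10 and 11 regions in 1398M1 and 9 and 4 in 1398P2. Neither difference passed limma, with log2 differences of 0.28 (adjusted p 0.420) and 0.43 (adjusted p 0.641). A peak at the start does not show whether the conditional allele was recombined.

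Among named genes with a RefSeq promoter entry, which Esrp1, Esrp2, Cdh1 and Insm1 lack, 6 whose starts differed between the lines were picked. Their promoters are shown. They come from RefSeq on GRCm38.p6 and run from 250 bases before to 50 bases after the start, 5′ to 3′ on the strand of the gene. Capitals mark every match, on either strand, to the E-box forms CAGCTG and CAGGTG, to TTGGCA (known from NFI sites), to TGANTCA (known from AP-1 sites), to AACCGGTT (known from grainyhead-like factors) or to the GC box GGGCGG, and marked matches may overlap. Arhgef16 lies at chr4:154299846-154300145 on the minus strand, Ildr1 at chr16:36693728-36694027 on the plus strand and Epcam at chr17:87635729-87636028 on the plus strand. D16Ertd472e lies at chr16:78576639-78576938 on the minus strand, Chgb at chr2:132781392-132781691 on the plus strand and Ccdc89 at chr7:90426062-90426361 on the plus strand. Arhgef16, Ildr1 and Epcam had lower starts in 1398M1, D16Ertd472e and Chgb had higher ones, and Ccdc89 had a peak in 1398P2 and none in 1398M1.
Arhgef16: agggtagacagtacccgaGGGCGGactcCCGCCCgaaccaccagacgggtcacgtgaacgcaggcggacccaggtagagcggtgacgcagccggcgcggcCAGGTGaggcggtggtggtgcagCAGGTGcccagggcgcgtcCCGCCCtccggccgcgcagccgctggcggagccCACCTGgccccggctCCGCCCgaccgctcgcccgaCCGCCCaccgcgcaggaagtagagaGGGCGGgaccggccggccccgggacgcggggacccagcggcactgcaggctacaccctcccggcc
Ildr1: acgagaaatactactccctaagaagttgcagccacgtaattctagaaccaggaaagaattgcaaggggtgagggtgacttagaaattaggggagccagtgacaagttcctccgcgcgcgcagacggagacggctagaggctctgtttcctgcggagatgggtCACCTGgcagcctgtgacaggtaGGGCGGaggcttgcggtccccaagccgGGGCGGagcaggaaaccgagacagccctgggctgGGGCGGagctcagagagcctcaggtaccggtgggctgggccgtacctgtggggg
Epcam: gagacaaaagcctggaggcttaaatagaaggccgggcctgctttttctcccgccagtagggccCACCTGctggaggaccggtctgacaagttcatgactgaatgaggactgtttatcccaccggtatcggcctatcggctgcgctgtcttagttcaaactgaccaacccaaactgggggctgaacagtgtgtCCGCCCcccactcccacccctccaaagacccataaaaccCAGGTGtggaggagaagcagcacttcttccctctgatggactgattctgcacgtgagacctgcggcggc
D16Ertd472e: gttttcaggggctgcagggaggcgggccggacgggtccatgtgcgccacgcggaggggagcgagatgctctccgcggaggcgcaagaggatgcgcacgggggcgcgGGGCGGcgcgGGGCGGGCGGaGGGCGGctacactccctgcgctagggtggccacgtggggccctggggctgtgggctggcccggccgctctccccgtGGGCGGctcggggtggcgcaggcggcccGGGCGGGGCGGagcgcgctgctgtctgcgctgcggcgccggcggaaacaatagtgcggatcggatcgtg
Chgb: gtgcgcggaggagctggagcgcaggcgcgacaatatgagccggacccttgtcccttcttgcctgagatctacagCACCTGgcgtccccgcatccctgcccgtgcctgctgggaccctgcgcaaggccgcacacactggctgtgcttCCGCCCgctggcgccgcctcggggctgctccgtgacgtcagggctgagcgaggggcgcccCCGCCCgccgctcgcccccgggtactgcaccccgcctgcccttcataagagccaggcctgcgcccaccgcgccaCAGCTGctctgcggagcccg
Ccdc89: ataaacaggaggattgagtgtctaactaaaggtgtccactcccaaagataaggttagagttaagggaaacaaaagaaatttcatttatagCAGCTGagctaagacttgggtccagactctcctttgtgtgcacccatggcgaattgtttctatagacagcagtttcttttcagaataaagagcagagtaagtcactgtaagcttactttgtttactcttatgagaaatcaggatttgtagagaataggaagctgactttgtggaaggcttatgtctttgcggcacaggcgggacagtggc

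Over 32619 RefSeq promoters of the same length, CAGGTG was found in 20.3%, GGGCGG in 35.9%, CAGCTG in 16.4%, TTGGCA in 14.1%, TGANTCA in 7.85% and AACCGGTT in 0.147%. CAGGTG occurred 3 times in Arhgef16, 2 times in Epcam and 1 time each in Ildr1 and Chgb. GGGCGG occurred 6 times in Arhgef16 and 7 times in D16Ertd472e, whose promoters are 77.0% and 77.3% G and C. CAGCTG occurred 1 time each in Ccdc89 and Chgb, and the Ccdc89 promoter is 41.3% G and C. These matches describe letters only.

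Openness at gene starts was compared first by the summit pileup, the number of fragments over the highest point of a peak, at regions with a peak in all 4 libraries. The starts of Arhgef16, Ildr1, Esrp1, Cldn7 and F11r were lower in 1398M1, and those of D16Ertd472e, Kcna3, Chgb and Insm1 were higher. Of the epithelial and mesenchymal list 7 of 14 tested starts were lower, and of the neuroendocrine list 5 of 19 were higher. Pileups were scaled by the median over these regions, and limma tested 25274 regions. Of these, 2029 (8.03%) were higher and 2587 (10.2%) were lower in 1398M1 at a limma adjusted p under 0.05, and 8563 had an unadjusted p under 0.05. The log2 pileups correlated at 0.954 between the 1398M1 libraries, at 0.781 between the 1398P2 libraries and at 0.656 to 0.762 between lines, across regions that are not independent. A shared region lay within 1 kb of the start of 11758 genes, and 1236 of these starts (10.5%) were higher and 528 (4.49%) lower, with a median log2 difference of 0.17. The need for a peak in the short list of 1398P2 replicate 2 chose these regions, so sites weak in 1398P2 are underrepresented. In bulk libraries, fewer cells with an open site and less opening per cell cannot be told apart. The p-values measure the spread between the libraries of a line, which may be technical, and 1 line per tissue gives no replicate of the tissue.

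The 8 starts with the smallest p in the lower direction were those of Arhgef16, Ildr1, Tmem184a, Esrp1, Arhgef38, Col18a1, F11r and Cldn7. Ildr1, which encodes a protein of tricellular junctions, had scaled pileups of 6.37 and 7.70 in 1398M1 and 82.8 and 89.5 in 1398P2. The log2 difference was -3.62 ± 0.27 (SE), with a limma adjusted p of 5.86e-05. F11r, which encodes the tight junction protein JAM-A, had 13.7 and 9.79 in 1398M1 and 82.3 and 80.6 in 1398P2. Both 1398M1 libraries lay far below both 1398P2 libraries at each gene. The F11r difference was -2.82 ± 0.26 (limma adjusted p 0.000217). Cldn7, a claudin of tight junctions, had 8.19 and 10.5 in 1398M1 and 62.9 and 71.6 in 1398P2, a difference of -2.86 ± 0.28 (limma adjusted p 0.000241). Arhgef16 and Arhgef38, which encode guanine nucleotide exchange factors, were also lower. Arhgef16 had 8.19 and 10.5 in 1398M1 and 118 and 113 in 1398P2, a log2 difference of -3.64 ± 0.25 (limma adjusted p 4.82e-05) that had the smallest p of all starts. The local background at its summits was 1.68 and 2.67 times the floor in 1398M1 and 17.1 and 7.93 times in 1398P2. Arhgef38 had 8.19 and 9.10 in 1398M1 and 82.8 and 71.6 in 1398P2. Col18a1, which encodes a basement membrane collagen, had 8.19 and 10.5 in 1398M1 and 66.5 and 98.5 in 1398P2, and Tmem184a had 11.8 and 13.3 in 1398M1 and 92.5 and 89.5 in 1398P2. The choice of starts by smallest p leaves no overlap between the groups at them. The log2 differences were -3.16 ± 0.27 at Arhgef38, -3.12 ± 0.29 at Col18a1 and -2.86 ± 0.24 at Tmem184a, with limma adjusted p-values of 0.000116, 0.000201 and 0.000116.

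The 8 starts with the smallest p in the higher direction held no common theme that was tested. Kcna3, a voltage-gated potassium channel gene, had scaled pileups of 89.2 and 79.8 in 1398M1 and 21.0 and 14.9 in 1398P2. Its log2 difference was 2.25 ± 0.25 (limma adjusted p 0.000446). Tle4, which encodes a Groucho-type corepressor, had 167 and 171 in 1398M1 and 62.9 and 56.7 in 1398P2, a difference of 1.51 ± 0.18 (limma adjusted p 0.000528). Angptl2, which encodes a secreted angiopoietin-like protein, had 114.7 and 100.7 in 1398M1 and 22.0 and 29.8 in 1398P2. Usp13, which encodes a deubiquitinase, had 82.8 and 81.2 in 1398M1 and 19.9 and 20.9 in 1398P2, so the 1398M1 libraries were the high ones at each of these starts. Plcl1, a phospholipase C-like gene, had 87.4 and 86.1 in 1398M1 and 11.8 and 17.9 in 1398P2. Crtac1 had 75.5 and 85.4 in 1398M1 and 9.20 and 14.9 in 1398P2. D16Ertd472e had 109 and 123 in 1398M1 and 24.5 and 20.9 in 1398P2, and its local background was 10.4 and 11.6 times the floor in 1398M1 and 2.16 and 2.00 times in 1398P2. Fbxo2, an F-box gene whose start shares its region with Fbxo44, had 276 and 323 in 1398M1 and 134 and 107 in 1398P2. At Fbxo2 the local background was 45.2 and 54.8 times the floor in 1398M1 and 21.8 and 9.98 times in 1398P2. Background lay apart between the lines in the same direction as the pileup at all 8 lower starts and at 6 of the 8 higher ones, all but Usp13 and Tle4. At Esrp1 it was 1.99 and 2.01 times the floor in 1398M1 and 20.2 and 6.71 times in 1398P2. Its part in these differences was not tested. No control library is among the samples, so the background may include fragments of the peak itself and need not be independent of the pileup. The log2 differences of these last starts were 2.07 ± 0.24 at Angptl2, 2.01 ± 0.23 at Usp13, 2.58 ± 0.27 at Plcl1, 2.78 ± 0.28 at Crtac1, 2.36 ± 0.23 at D16Ertd472e and 1.31 ± 0.16 at Fbxo2, and the highest limma adjusted p among them was 0.000528. When any 1 of the 4 libraries was left out, the log2 differences were 1.16 to 3.13 at the higher starts. At the lower starts they were -3.82 to -2.58. These starts were chosen by p from the same libraries, so kept directions add no support. Replicate 2 of 1398P2 had 5 to 38 unscaled fragments at these 16 starts, so its values are the coarsest.

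**Figure D1:**
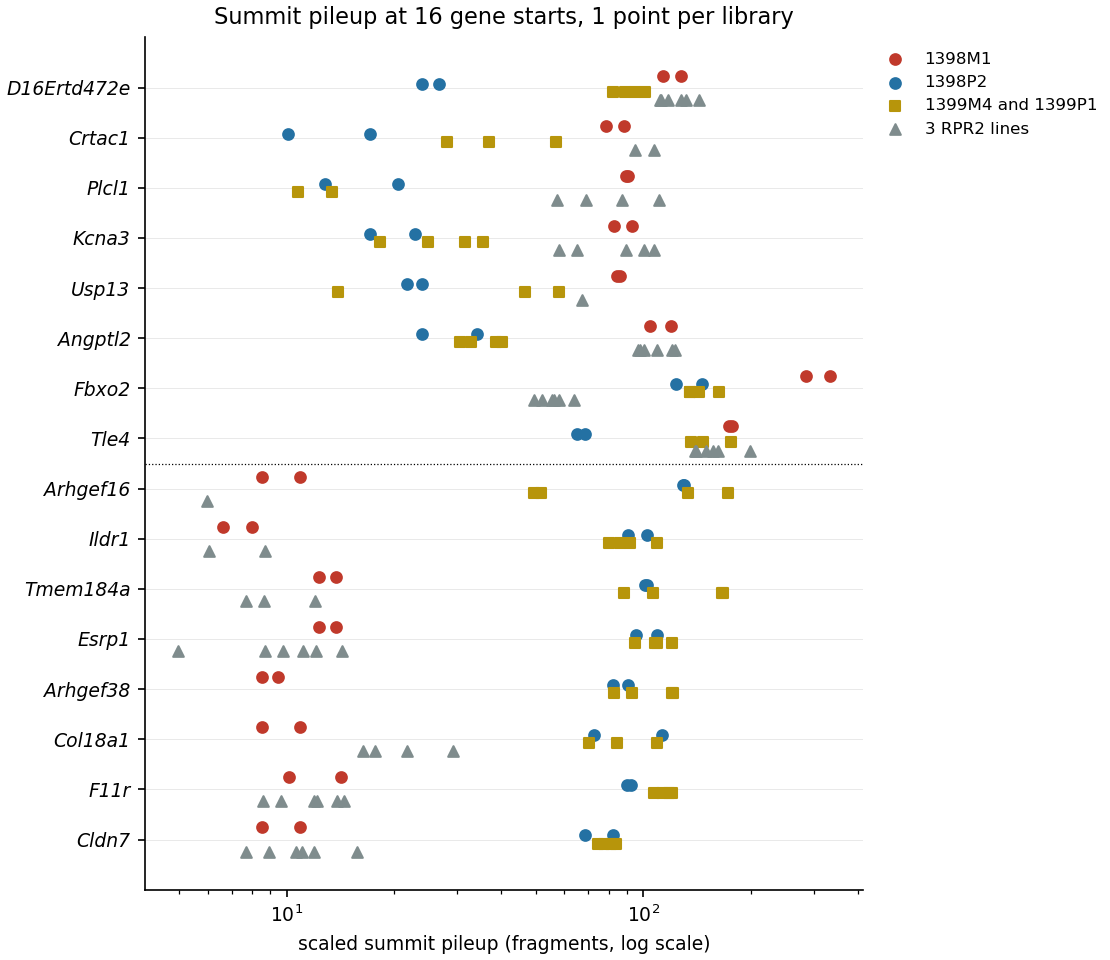
Summit pileup at the 16 named gene starts, with 1 point per library on a log axis in fragments, scaled over all 14 libraries (a different scale from the text above). The upper 8 starts were higher and the lower 8 lower in 1398M1 (red) than in 1398P2 (blue). The lower 8 were high in 1399M4 and 1399P1 (yellow) and low in the RPR2 lines (gray). Points are missing where a library had no peak, as at Arhgef38, or had a peak without a value, as at Crtac1 and Usp13.

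In the list of epithelial and mesenchymal genes, Esrp1, Esrp2, Cdh1, Epcam, Krt8, Krt18 and Ovol2 were lower in 1398M1. Of 19 genes, 14 had a start region with a peak in all 4 libraries. Of these 14, 7 were lower in 1398M1 and 0 higher, beside 4.49% and 10.5% of all starts tested, and the median log2 difference was -0.73, against 0.17 over all starts. Esrp1 and Esrp2 encode epithelial splicing regulators. Esrp1 had scaled pileups of 11.8 and 13.3 in 1398M1 and 87.4 and 95.5 in 1398P2, and Esrp2 had 15.5 and 13.99 in 1398M1 and 92.5 and 68.6 in 1398P2. The differences were -2.87 ± 0.24 (limma adjusted p 0.000116) and -2.44 ± 0.25 (limma adjusted p 0.000268), and the groups were far apart. Cdh1, which encodes E-cadherin, had 23.7 and 31.5 in 1398M1 and 70.0 and 59.7 in 1398P2, a difference of -1.24 ± 0.25 (limma adjusted p 0.00578). Epcam, an epithelial adhesion gene, had 40.0 and 27.3 in 1398M1 and 82.3 and 83.5 in 1398P2, a difference of -1.33 ± 0.24 (limma adjusted p 0.00409). Krt8 and Krt18 encode the keratins of simple epithelia. Krt8 had 30.9 and 25.9 in 1398M1 and 53.2 and 74.6 in 1398P2, and Krt18 had 19.1 and 16.8 in 1398M1 and 43.5 and 38.8 in 1398P2. The differences were -1.15 ± 0.25 (limma adjusted p 0.00962) and -1.196 ± 0.262 (limma adjusted p 0.00959). Ovol2, a transcription factor gene of epithelia, had 24.6 and 21.7 in 1398M1 and 40.9 and 41.8 in 1398P2, a difference of -0.84 ± 0.25 (limma adjusted p 0.0352).

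With any 1 library left out, the log2 differences were -2.95 to -2.22 at Esrp1 and Esrp2. The 5 smaller calls did not all hold in these fits. Background lay apart in the same direction at 5 of the 7, and its part was not tested. Without 1398M1 replicate 1, the limma adjusted p was 0.0987 at Cdh1. Without 1398M1 replicate 2 it was 0.0848 at Epcam, 0.115 at Krt8 and 0.0926 at Krt18. Ovol2 lost its call without either of them, at limma adjusted p-values of 0.161 and 0.297. The mesenchymal members did not pass the test. Cldn4, Vim, Zeb2, Twist1 and Twist2 had no start region to test. Snai1 and Zeb1, which encode repressors of Cdh1, had log2 differences of 0.55 ± 0.26 and -0.13 ± 0.24, Cdh2, which encodes N-cadherin, had 0.42 ± 0.23, and Fn1, which encodes fibronectin, had -0.49 ± 0.40. Grhl2 and Cldn3, which are epithelial genes, did not pass either, at -0.61 ± 0.29 and -0.17 ± 0.27.

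Most neuroendocrine starts lay in regions with a peak in all 4 libraries, and 5 were higher in 1398M1. Of 20 genes of that list, 19 were tested, with 5 higher and 0 lower in 1398M1, beside 10.5% and 4.49% of all starts, and a median log2 difference of 0.30, against 0.17 over all starts. Chgb, which encodes a chromogranin of secretory granules, had scaled pileups of 171 and 177 in 1398M1 and 90.0 and 59.7 in 1398P2, a difference of 1.25 ± 0.21 (limma adjusted p 0.00254). Insm1, a transcription factor gene of neuroendocrine cells, had 134 and 182 in 1398M1 and 66.5 and 71.6 in 1398P2, a difference of 1.18 ± 0.20 (limma adjusted p 0.00268). Ddc encodes the aromatic amino acid decarboxylase and had 91.0 and 84.7 in 1398M1 and 43.5 and 38.8 in 1398P2. Dll3, an inhibitory NOTCH ligand gene, had 42.8 and 58.1 in 1398M1 and 22.0 and 26.9 in 1398P2. Foxa2, a transcription factor gene of lung and gut, had 122 and 139 in 1398M1 and 92.0 and 68.6 in 1398P2. These 5 are the ones that passed, so the higher values of the 1398M1 libraries at them add nothing to the test. Background lay apart in the same direction at 3 of the 5, and its part was not tested. The differences were 1.096 ± 0.213 at Ddc, 1.04 ± 0.26 at Dll3 and 0.71 ± 0.20 at Foxa2, with limma adjusted p-values of 0.00539, 0.0178 and 0.0283. With any 1 library left out, the log2 difference at Chgb was 0.95 to 1.54. Without 1398M1 replicate 2, the limma adjusted p was 0.0884 at Insm1, 0.270 at Dll3, 0.0645 at Ddc and 0.323 at Foxa2, and without replicate 1 it was 0.0950 at Ddc and 0.147 at Foxa2.

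Nkx2-1, a transcription factor gene of lung, had scaled pileups of 64.6 and 75.6 in 1398M1 and 56.8 and 56.7 in 1398P2, a log2 difference of 0.30 ± 0.21 that did not pass the test (limma adjusted p 0.340). Chga, Syt1, Uchl1, Calca and Prox1 had differences between -0.06 and 0.02, each with a standard error of 0.19 to 0.24. Gene ends of all 20 genes held peaks in both 1398M1 libraries and in 1398P2 replicate 1, and those of 18 in 1398P2 replicate 2. Over all genes, 11652 of 21631 had an end open in both lines.

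**Figure D2:**
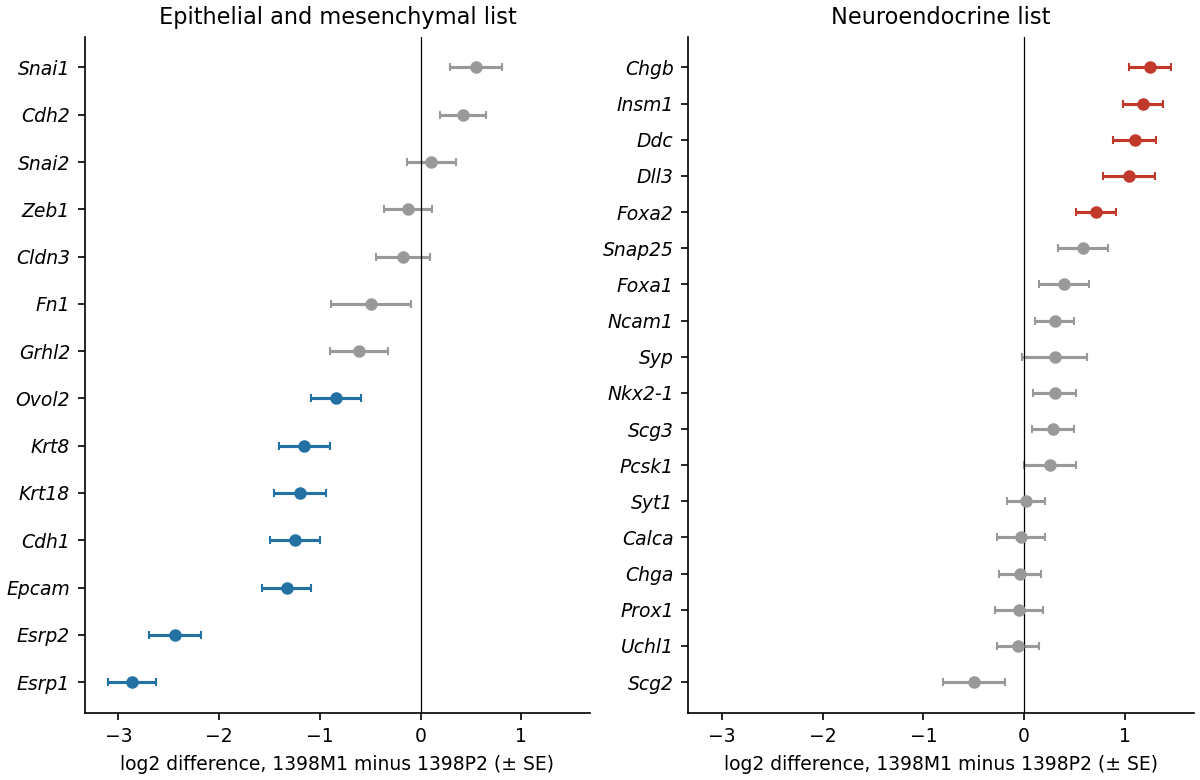
Log2 difference in scaled summit pileup, 1398M1 minus 1398P2, at the starts of the epithelial and mesenchymal list and of the neuroendocrine list, with bars of 1 SE on a linear axis. Red and blue points passed limma at an adjusted p under 0.05 as higher and lower in 1398M1, and gray points did not. In the left panel 7 of 14 starts were lower, with Esrp1 at -2.87, and in the right panel, which leaves out 1 of the 19 tested starts, 5 were higher, with Chgb at 1.25.

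Counts in the other lists stand beside 10.5% higher and 4.49% lower over all starts tested, and with 1 to 16 tested starts a list they are small. Of the axon and neuron projection genes, 16 of 32 were tested, with 3 higher and 1 lower in 1398M1. Sema3c and Sema6d, which encode semaphorin guidance ligands, had differences of 1.32 ± 0.28 and 1.196 ± 0.283, and Fez1, a gene of axon outgrowth, had 0.83 ± 0.23. L1cam, which encodes a neural adhesion protein, had -1.14 ± 0.28. Of the integrin, laminin and matrix genes, 10 of 24 were tested, with 4 higher and 2 lower. Itga4 and Itgb1, which encode integrin subunits, had 1.201 ± 0.243 and 0.73 ± 0.18, Lamc1, a laminin chain gene, had 0.75 ± 0.21 and Adam17, a sheddase gene, had 0.63 ± 0.18. Itga6, a subunit gene of a laminin receptor, had -0.79 ± 0.21. At Itga4, the integrin with the largest of these differences, scaled pileups were 47.3 and 52.5 in 1398M1 and 22.5 and 20.9 in 1398P2.

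Of the NOTCH and YAP genes, 11 of 16 were tested, with Hey1, a NOTCH target gene, higher at 0.91 ± 0.21 and Dll4, a NOTCH ligand gene, lower at -1.11 ± 0.26. Of the targeted tumor suppressor genes and their relatives, 6 of 6 were tested, with 2 higher, among them Rb1 at 0.88 ± 0.21, and 0 lower. Trp53 and Rbl2 had -0.15 ± 0.22 and 0.04 ± 0.24. A start region does not show whether an exon was deleted. Of the MYC genes, Myc was lower at -0.99 ± 0.26 and Mycn had 0.37 ± 0.27, and the start of Mycl was not among the tested ones. Of the WNT and TGF-beta genes, 10 of 22 were tested, with Tgfbr1, a receptor gene, higher at 0.66 ± 0.17 and 0 lower. Of the tuft-like genes, 1 of 8 was tested, and Dclk1, a kinase gene used as a tuft cell marker, was higher with scaled pileups of 77.4 and 79.1 in 1398M1 and 28.6 and 20.9 in 1398P2, a difference of 1.68 ± 0.24 (limma adjusted p 0.00143). Of the neurogenic factors and the NFI genes, 6 of 16 and 2 of 4 were tested and 0 passed. Except for Dclk1, each called start named from these lists lost its call without 1398M1 replicate 1, 1398M1 replicate 2 or both, where the limma adjusted p reached 0.0840 at Sema6d to 0.415 at Adam17.

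Markers of cells from the host organs differed in how many held peaks, beside 6722 of all 21631 genes without a peak at an end. No gene end of 10 of the 12 hepatocyte genes had a peak in any of the 4 libraries, and 0 starts of that list could be tested. Regions elsewhere in and around hepatocyte genes were found, such as 5 and 5 in 1398M1 and 8 and 2 in 1398P2 at Hnf4a, a liver transcription factor gene. Alb and Afp, the genes of albumin and alpha-fetoprotein, had 0 regions in and around them in all 4 libraries. The gene ends were likewise without a peak for 10 of 12 lymphocyte and myeloid genes, with Cd4 higher in 1398M1 at 0.83 ± 0.25 (limma adjusted p 0.0384, and 0.158 and 0.316 without 1398M1 replicate 1 and 2) and Spi1 at -0.37 ± 0.23. The Cd4 region lay at the low-coordinate end of the gene and the Spi1 region at the high-coordinate end. These ends may not be the starts of transcription. The number of regions at Cd4 ran the other way from the pileup, with 2 and 2 in 1398M1 and 4 and 4 in 1398P2 (log2 difference -1.15, limma adjusted p 0.458). Cd8a had 0 regions in all 4 libraries. Of the lung epithelium and of the fibroblast and endothelium genes, 3 and 6 of 12 had no peak at a gene end, and 0 of 3 and 0 of 2 tested starts passed.

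Presence and absence of peaks were compared next. Merging the 4 lists by an overlap of at least 1 bp on chromosomes 1 to 19 and X gave 106645 regions. Open means here a peak in both libraries of the line, and closed a peak in neither. Regions open in 1398M1 and closed in 1398P2 numbered 11180 (10.5%), regions open in 1398P2 and closed in 1398M1 numbered 2250 (2.11%), and 25404 were open in both. The short list of 1398P2 replicate 2 limits what can be called open in 1398P2. Of its 32063 regions, 28952 (90.3%) also had a peak in replicate 1, but of the 78599 regions of replicate 1 only 36.8% had one in replicate 2. Regions with a peak in 1398P2 replicate 1 alone numbered 20034.

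The direction of the imbalance turned with the handling of that list. With 1398P2 replicate 1 alone, 11469 regions were specific to 1398M1 and 22291 to 1398P2. With the 33519 top-ranked peaks of each library, the numbers were 5789 and 4201. With 67712 top-ranked peaks in each of the other 3 libraries, they were 12988 and 16850. Regions specific to 1398M1 were thus the more numerous wherever 1398P2 replicate 2 was used here, and those specific to 1398P2 wherever it was left out. Replicate libraries of 1398M1 shared a Jaccard index of 0.714, those of 1398P2 had 0.354, and libraries of different lines had 0.335 to 0.532.

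**Figure D3:**
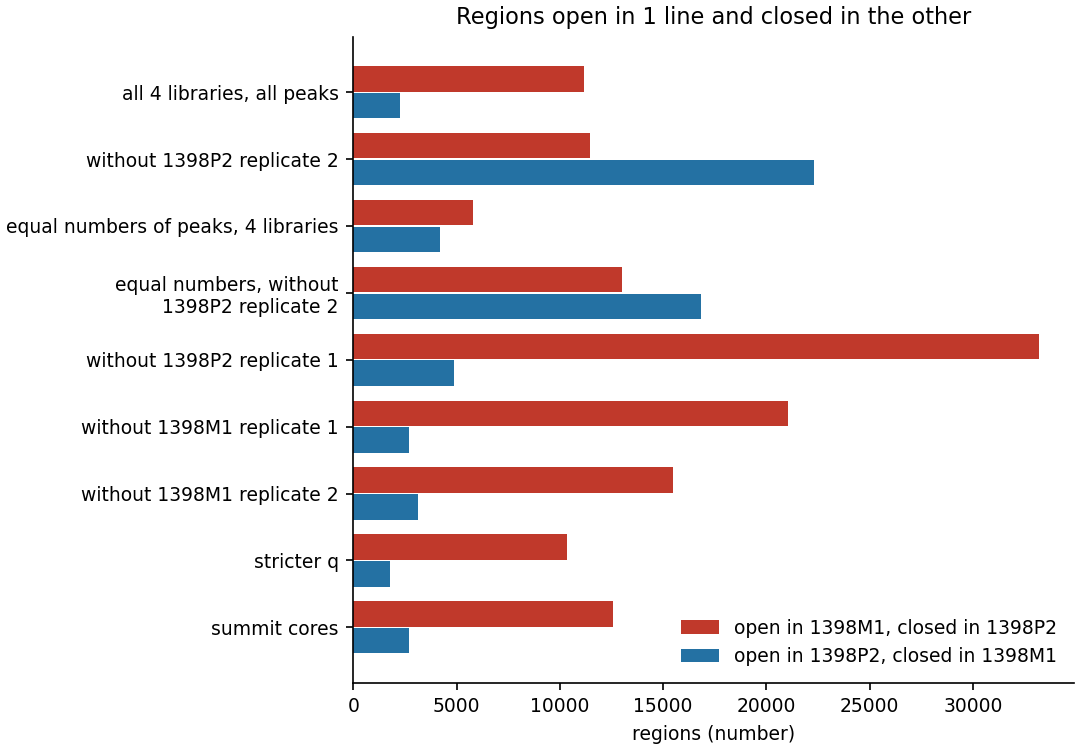
Number of regions open in 1398M1 and closed in 1398P2 (red) and open in 1398P2 and closed in 1398M1 (blue) under 9 settings, on a linear axis from 0. With all peaks the numbers were 11180 and 2250, and without 1398P2 replicate 2 they were 11469 and 22291.

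Regions specific to 1 line were mostly away from gene starts. Within 1 kb of a start lay 3.28% of the regions specific to 1398M1 and 6% of those specific to 1398P2, against 43.3% of the regions open in both. Inside genes but away from starts lay 47.1% of those specific to 1398M1 and 54.5% of those specific to 1398P2, against 29.6% of the shared ones. Median widths were 435 bp for 1398M1, 598 bp for 1398P2 and 959 bp for shared regions. Chromosome 19 had the highest share of its regions specific to 1398M1, 16.8%, and chromosome 7 had the highest share specific to 1398P2, 3.30%, with 6.63% specific to 1398M1.

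The region specific to 1398M1 with the highest rank lay inside Mycl, a MYC family gene, at chr4:122998508-122999177. The next lay inside Trit1 at chr4:123034624-123035444, with pileups of 245 and 345 fragments in 1398M1 and no peak in 1398P2. Both had peaks in 8 of the 10 libraries of other lines. Further regions lay at chr7:64085467-64087345, with 155 and 229 fragments, at chr7:64078430-64080795, with 153 and 260, and inside Il1rapl1 at X:87238357-87238574, with 72 and 82. Among regions specific to 1398P2, the highest-ranked lay 8149 bp from Ttll10 at chr4:156058966-156060264, with 291 and 47 fragments in 1398P2 and none called in 1398M1. Others lay inside Atp6v1h at chr1:5110029-5111246, inside Osbpl5 at chr7:143723461-143724667, and at the start of Ccdc89. Another lay at an end of Cacna2d4, whose strand was not known here. The values at Atp6v1h were 153 and 34 fragments and those at Osbpl5 were 154 and 31. Sequences of these regions were not used here, and coordinates are those of GRCm38.

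Gene ends were classed the same way. For genes with a known strand the end is the start of transcription. Of 21631 genes, 235 (1.09%) had an end that was open in 1398M1 and closed in 1398P2, 96 (0.444%) the reverse, 11652 were open in both and 6722 had no peak in the 4 libraries. Among the 235 were Sema3d, a semaphorin ligand gene, with pileups of 63 and 70 fragments in 1398M1, and Eya1 with 44 and 39. Eya1 encodes a developmental regulator of transcription. Vldlr, a lipoprotein receptor gene, had 50 and 65. Pde3a, a phosphodiesterase gene, had 37 and 54 and Edil3, an integrin ligand gene, had 48 and 73. None of these 5 had a peak in 1398P2. Among the 96 were Ccdc89, with 116 and 36 fragments in 1398P2, Cacna2d4, a calcium channel subunit gene, with 128 and 28, and Tnk1, a kinase gene, with 102 and 24. Tmprss4, a membrane serine protease gene, had 114 and 26 and Eps8l1, a relative of the actin regulator Eps8, had 116 and 21, and none of these 5 had a peak in 1398M1. In all 5 other lines, both libraries had a peak at an end of Eya1, Pde3a, Edil3, Ccdc89 and Cacna2d4. For Cacna2d4 either end counted. Sema3d had this in all but 1373M1, where 1 library had a peak. Vldlr had peaks in 1 library of 1373M1, in none of 1399M4 and in both of each other line. Tnk1 and Tmprss4 had peaks in 1399M4 and 1399P1 and in no RPR2 library, and Eps8l1 in these lines and 1373M1. All 10 kept their class with equal numbers of top-ranked peaks. Among list genes, Avil, Epha5, Gap43, Itga2 and Bmpr1b were open in 1398M1 alone, and Gap43 and Itga2 had no peak in any library among the equal numbers. The counts were 235 for 1398M1 and 542 for 1398P2 without 1398P2 replicate 2, 336 and 343 with equal numbers, and 2106 and 104 without 1398P2 replicate 1.

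Csmd1, Lrrc4c, Erbb4, Kank1 and Cap1 held more regions in 1398M1 than in 1398P2. The number of regions in and within 10 kb of a gene was tested with limma for 7331 genes. These 5 had more regions in 1398M1 (0.0682%) and 0 had more in 1398P2 (0%), with 439 and 227 at an unadjusted p under 0.05. Csmd1, which encodes a large CUB and sushi domain protein, had 22 and 31 regions in 1398M1 and 1 and 1 in 1398P2, a log2 difference of 3.86 ± 0.33 (limma adjusted p 0.00274). Lrrc4c, which encodes a netrin-G ligand of synapses, had 14 and 19 regions in 1398M1 and 1 and 1 in 1398P2, a difference of 3.20 ± 0.32 (limma adjusted p 0.00674). Erbb4, a neuregulin receptor gene, had 9 and 17 regions in 1398M1 and 2 and 1 in 1398P2. Kank1, a cytoskeletal regulator gene, had 12 and 12 in 1398M1 and 3 and 1 in 1398P2. Cap1, which encodes an actin regulator, had 10 and 13 in 1398M1 and 2 and 1 in 1398P2. The differences were 2.47 ± 0.32 at Erbb4, 2.19 ± 0.28 at Kank1 and 2.35 ± 0.27 at Cap1, with limma adjusted p-values of 0.0236, 0.0236 and 0.0148. At Cap1, which lies near Mycl, the local background was 57.0 and 64.5 times the floor in 1398M1 and 18.2 and 6.68 times in 1398P2, and its part in the count was not tested.

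These calls rested on few libraries and on 2 choices of processing. Without the filter on region number 0 genes were called, with limma adjusted p-values of 0.324 at Csmd1, Lrrc4c and Cap1, 0.356 at Kank1 and 0.432 at Erbb4, and without scaling 0 were called, with 0.568 to 0.928 for the 5. With 1 to 3 regions in each 1398P2 library, all 5 passed the filter through 1398M1. Without 1398M1 replicate 2 the limma adjusted p was 0.588 at Lrrc4c, 0.977 at Cap1 and at Erbb4 and 0.3304 at Kank1, and only Csmd1 was still called. Without 1398M1 replicate 1 it was 0.149 at Cap1 and 0.252 at Kank1. With equal numbers of top-ranked peaks 0 of the 5 were called, and Csmd1 then had 8 and 9 regions in 1398M1 and 0 and 1 in 1398P2. Cap1 and Erbb4 were not tested in that setting. The log2 differences there were 3.37 at Csmd1, 2.88 at Lrrc4c and 2.78 at Kank1 (limma adjusted p 0.0689, 0.103 and 0.107). The next genes by p that had more regions in 1398M1 were Meis1, Nrg3, Ppt1, Hs6st3 and Itgbl1, at limma adjusted p-values of 0.0867 to 0.0883. In the other direction Sh3gl3, Ehmt1, Specc1, Pde11a, Espn, Hif3a, Pmfbp1, Gas7, Cd86 and Pak4 had log2 differences of -1.80 to -1.12, at limma adjusted p-values of 0.161 to 0.288. Among the genes holding the most regions specific to 1398M1 were Csmd1 and Nrxn3 with 20 each, Macrod2 with 17, Nav2 with 16, Rbfox1 and Ptprn2 with 15 each, and Nckap5 and Ptprm with 14 each. For 1398P2 they included Camta1 with 5, and Ankrd44, Pde11a, 2900026A02Rik, Dgkg, Psd3, Auts2 and Pde4d with 4 each. Any region specific to 1398M1 was held by 4320 genes, and any specific to 1398P2 by 1736.

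None of the 15 gene lists held a gene that passed this test. Within and around the 32 axon and neuron projection genes, 86 of 505 regions (17.0%) were specific to 1398M1 and 7 (1.39%) to 1398P2, beside 10.5% and 2.11% over all regions. Sema6d held 11 of the 86, and Slit1, an axon repellent gene, and Ank2, an ankyrin gene, held 8 each. Slit1 had 16 and 16 regions in 1398M1 and 9 and 1 in 1398P2. There 1398P2 replicate 1 lay nearer to 1398M1 than 1398P2 replicate 2 did. Regions specific to 1398M1 made up 15.7% of 51 in the tuft-like list, 7 of them at Dclk1, 15.4% of 162 in the WNT and TGF-beta list, 15.0% of 113 in the NOTCH and YAP list and 12.8% of 187 in the integrin, laminin and matrix list. They made up 11.7% of 77 in the NFI family, 10.6% of 94 in the neurogenic factors, 9.76% of 123 in the neuroendocrine list, 9.09% of 33 in the tumor suppressors and 8.60% of 93 in the epithelial and mesenchymal list. Regions specific to 1398P2 were 4 (4.30%) in the epithelial and mesenchymal list, 4 (3.25%) in the neuroendocrine list, 5 (2.67%) in the integrin, laminin and matrix list, 2 (1.77%) in the NOTCH and YAP list, and 1 each in the NFI, neurogenic and WNT and TGF-beta lists. Of the 9 regions of the MYC family 3 were specific to 1398M1, and all 3 were at Mycl. In the hepatocyte, lung epithelium, lymphocyte and myeloid, and fibroblast and endothelium lists, 2, 1, 2 and 2 regions were specific to 1398M1 and 0, 0, 2 (5.13%) and 2 (3.64%) to 1398P2.

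The other 5 lines offered a measure that the choice of regions did not use. Regions specific to 1398M1 were open in the RPR2 lines at higher shares than in the other RPR2;Nfibf/f lines, and for those specific to 1398P2 the shares ran the other way. Of the 11180 regions specific to 1398M1, 19.9% were open in 1399M4 and 26.3% in 1399P1, against 47.7% in 1373M1, 39.3% in 12N1G and 39.5% in N2N1G. Of the 2250 specific to 1398P2, 49.1% were open in 1399M4 and 71.3% in 1399P1, against 9.33% in 1373M1, 10.9% in 12N1G and 10.7% in N2N1G. Over all regions of the pair, the shares were 45.4% in 1399M4, 54.7% in 1399P1 and 44.2%, 41.9% and 41.8% in the RPR2 lines. Regions specific to 1398M1 thus stood near these shares in the RPR2 lines and below them in 1399M4 and 1399P1. Those specific to 1398P2 stood below them in the RPR2 lines, near them in 1399M4 and above them in 1399P1. Regions are not replicates, so no test was made. Without 1398P2 replicate 2, 30.6% of the regions specific to 1398P2 were open in 1399M4 and 1399P1 on average and 8.65% in the RPR2 lines. Without 1398P2 replicate 1, regions specific to 1398M1 were open in the RPR2 lines at 52.3% and in 1399M4 and 1399P1 at 50.9% on average, against 42.2% and 23.1% with all 4 libraries, so that contrast rests on 1398P2 replicate 1. Of the regions specific to 1398M1, 6.99% were open in 1399M4 and closed in 1399P1 and 13.8% the reverse. Of those specific to 1398P2 the shares were 2.36% and 19.6%, and over all regions of the pair 3.55% and 11.8%.

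**Figure D4:**
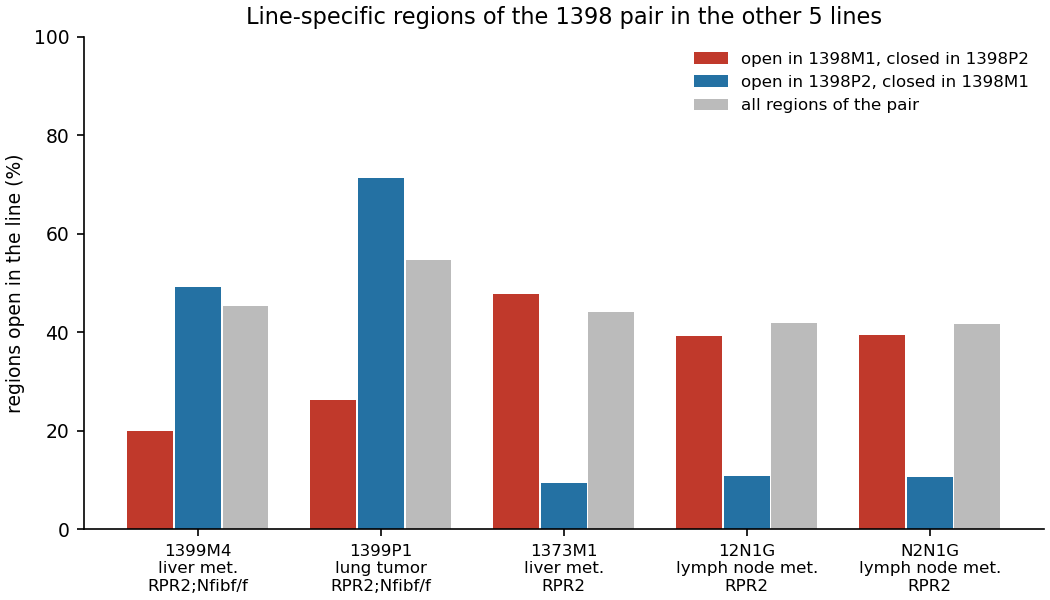
Percent of regions open in each of the other 5 lines, for regions open in 1398M1 and closed in 1398P2 (red), for the reverse (blue) and for all regions of the pair (gray), on a linear axis from 0. Red bars stand at 19.9% in 1399M4, 26.3% in 1399P1 and 39.3% to 47.7% in the RPR2 lines, and blue bars at 49.1%, 71.3% and 9.33% to 10.9%.

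Some of the named starts showed the same arrangement of lines. On a scale over all 14 libraries, the start of Esrp1 had 12.3 and 13.8 in 1398M1 and 95.5 and 109 in 1398P2, with 108 and 110 in 1399M4, 95.03 and 120.1 in 1399P1, and 4.95 to 14.3 in the 6 RPR2 libraries. That of Cldn7 had 81.4 and 83.7 in 1399M4, 74.8 and 77.3 in 1399P1 and 7.70 to 15.7 in the RPR2 libraries. Arhgef38 had no peak in any of the 6 RPR2 libraries and 83.0 to 120.9 in 1399M4 and 1399P1. Line 1398M1 thus lay with the RPR2 lines at these starts and 1398P2 with 1399M4 and 1399P1. At Kcna3, 1399M4 and 1399P1 had 18.2 to 35.4 and the RPR2 libraries with a value 58.1 to 107, beside 92.7 and 82.7 in 1398M1 and 22.9 and 17.1 in 1398P2. Fbxo2 differed from this, with 49.5 to 63.9 in the RPR2 libraries, below 1398M1 and 1398P2. Among libraries with a value, Myc ran the other way, with 45.3 to 59.35 in 5 of the 6 RPR2 libraries and 10.3 and 20.4 in 1399M4. Beside these, 1398M1 had 19.9 and 23.2 at Myc and 1398P2 had 47.45 and 44.4. Both 1399P1 libraries had a peak at Myc but no value, so that line could not be placed there. A missing value is not a missing peak. At D16Ertd472e and Tle4, 1398P2 alone was low. It had 26.8 and 23.9 at D16Ertd472e against 82.2 to 143 in the other lines. At Tle4 it had 68.7 and 65.0 against 136 to 199 in those with a value. Of the 5 neuroendocrine starts called higher in 1398M1, 1398P2 was also the lowest line at Ddc and Dll3. It had 47.5 and 44.4 at Ddc against 70.6 to 174 in other libraries with a value. At Dll3 it had 24.0 and 30.8 against 32.2 to 60.2. At Insm1, Chgb and Foxa2 its values overlapped those of other lines.

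The difference between the pairs was tested with limma on 8 libraries, as 1398M1 minus 1398P2 less 1399M4 minus 1399P1. For the number of regions, 57 of 8014 genes differed (0.711%), and Csmd1, Lrrc4c, Erbb4 and Kank1 were among them. Cap1 was not, with a log2 difference of 2.31 between 1399M4 and 1399P1. For summit pileups, 3406 of 15165 regions differed (22.5%). Of the 1253 regions higher in 1398M1 that could be tested, 748 (59.7%) had the higher value in 1399M4 too, beside 52.7% of all tested regions, and 613 differed between the pairs. Of 1468 regions lower in 1398M1, 857 (58.4%) had the lower value in 1399M4 too, beside 47.3% of all, and 821 differed. Over all 15165 tested regions, limma called 1242 higher in 1399M4 than in 1399P1 and 2535 lower. Among the 1253 these numbers were 140 and 236, and among the 1468 they were 163 and 367. These regions, like the named genes and starts, were chosen by the difference between 1398M1 and 1398P2, which is part of the tested contrast. The numbers that differed and the limma results at named genes and starts are therefore a description. At Arhgef16, 1399M4 was higher than 1399P1 by 1.65, so the difference between the pairs was -5.32 ± 0.30 (limma adjusted p 6.32e-08). At Cdh1 1399M4 minus 1399P1 was 0.41 and the pairs differed by -1.68 ± 0.28 (limma adjusted p 0.000429).

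Local background around Mycl was higher in 1398M1. The background of each 1 Mb bin was taken as the median over its summits, divided by the floor of the library. Of 1853 bins, 5 were at least 2 times higher in both 1398M1 libraries than in both 1398P2 libraries and 3 were higher in 1398P2. Between 121 and 124 Mb of chromosome 4, 3 adjacent bins had 6.30 to 25.6 times the floor in 1398M1 and 2.33 to 5.07 times in 1398P2. They hold Mycl, Cap1 and Trit1. The other bins higher in 1398M1 lay at 3 Mb of chromosomes 4 and 17, and those higher in 1398P2 at 24 and 30 Mb of chromosome 1 and at 156 Mb of chromosome 4. The last of these holds the region near Ttll10 named above. Summits over Mycl itself had a median background of 75.1 and 79.1 times the floor in 1398M1 and 15.5 and 5.14 times in 1398P2, and Mycl had 5 and 5 regions in 1398M1 and 2 and 1 in 1398P2. The part of the background in the regions specific to 1398M1 at Mycl and Trit1 was not tested.

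**Figure D5:**
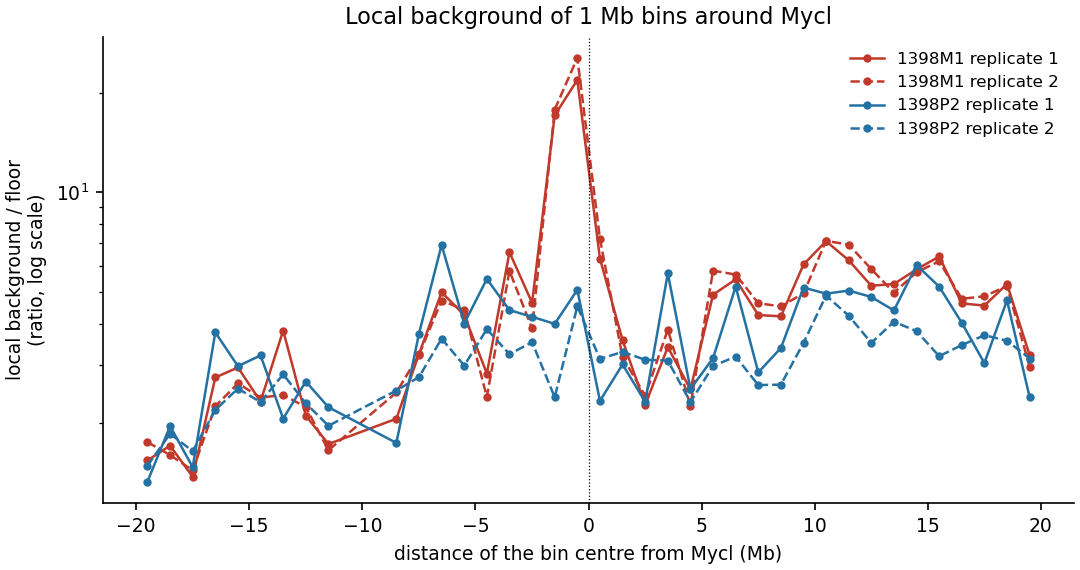
Local background of 1 Mb bins, divided by the floor of each library, on a log axis against the distance of the bin centre from Mycl in Mb. Both 1398M1 libraries (red) reach 21.9 and 25.6 in the bin left of Mycl, and the 1398P2 libraries (blue) 5.07 and 4.51.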

How the data were processed

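Accessible chromatin was profiled in 7 lines with 2 libraries each, and 1 peak list per library was used. The submitters' processing notes name MACS2, SAMtools, Picard, Bowtie2 and cutadapt 2.10, and the builds mm10 and GRCm38. Which settings, read filters or shifts were applied is not stated in these sources. Some list names carry another build name, although all coordinates fit GRCm38. The authors gave each summit a fold enrichment, a ratio over local background, with its −log10 p-value and −log10 q-value (lowest 1.30). The deposited score of each peak was not used.

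Under the caller's Poisson model the fold and the p together fix the pileup and background of a summit. For 1192085 summits with a −log10 p up to 250, 100% of the pileups were whole within 0.02. With limma 3.58.1 (R 4.3.3, trended empirical Bayes, Benjamini-Hochberg threshold 0.05), log2 of scaled region numbers plus 0.5 was tested where the mean number was 3 or more, so fold changes of genes holding few regions come out too small. The pileup comparison, the difference of the pairs and the choice of named starts (8 per direction by smallest p, and list genes that passed) were chosen after seeing the data. Genes by region number were the 10 per direction with the smallest p and the 8 holding the most specific regions. Regions and gene ends were the 5 per direction with the highest mean percentile, and promoters were picked afterwards among named genes with a RefSeq entry. Results of a few list genes are not reported here, although counts over the lists include them. The members and lists were chosen with earlier results of these data known. Starts came from RefSeq for 17274 of 21631 genes. Both ends were used for the others, so what is called a start there can be the other end of the gene. An exact test of 2 against 2 libraries cannot go below p = 0.333. Deviations of equal replicate numbers correlated at -0.13 for regions and -0.06 for pileups, so they were not treated as pairs.

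In data simulated at the real library totals, the region-number fit called 36 of 100 genes changed 4-fold and 97 of 100 changed 16-fold under Poisson draws among 7331 genes, with 0 unchanged genes called. Under binomial draws it called 86 and 100 of 100, and 13 unchanged genes. The pileup fit called 97 and 100 of 100 among 25274 regions, with 0 unchanged. The simulated spread was sampling alone, less than in the real libraries.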

Additional observations from a re-analysis of the deposited data

Results flagged for a closer look

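The following results differed between the pairs by limma on the difference of their log2 differences, 1398M1 minus 1398P2 less 1399M4 minus 1399P1. The genes and starts were named by the difference between 1398M1 and 1398P2, which is part of this contrast, so the values are a description. The number of regions differed by 3.92 at Csmd1, 3.59 at Lrrc4c, 3.78 at Erbb4 and 2.24 at Kank1. Summit pileups at starts that were higher in 1398M1 differed by 2.07 at D16Ertd472e, 2.81 at Kcna3, 1.95 at Angptl2 and 1.32 at Fbxo2. Junction and exchange factor genes differed by -5.32 at Arhgef16, -3.64 at Ildr1, -3.71 at Arhgef38, -2.86 at F11r and -3.07 at Cldn7, and Tmem184a by -3.73. Epithelial genes differed by -2.98 at Esrp1, -2.87 at Esrp2, -1.68 at Cdh1, -1.57 at Krt8 and -1.12 at Ovol2. Neuroendocrine genes differed by 0.90 at Insm1 and 1.04 at Chgb, and the tuft cell marker gene Dclk1 by 1.88. Guidance and adhesion genes differed by 0.93 at Sema3c, 2.17 at Sema6d and -1.16 at L1cam. Integrin genes differed by 3.39 at Itga4 and -1.28 at Itga6, and the region at an end of Cd4 differed by 1.34.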

How the results depend on the processing

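No direction reversed at the named genes and starts, while counts moved with the libraries used. Counts of regions and gene ends specific to 1398M1 moved furthest without 1398P2 replicate 1. Those specific to 1398P2 moved furthest without 1398P2 replicate 2, whose short list limits what can be called open in 1398P2. With 1 library left out, specific regions numbered 11469 to 33224 for 1398M1 and 2686 to 22291 for 1398P2, and gene ends 235 to 2106 and 104 to 542. Genes by region number were 2 to 1592 higher in 1398M1 and 0 to 1333 in 1398P2, with 0 to 55 list genes called. Regions by pileup were 368 to 5393 higher and 989 to 5041 lower, bins 8 to 33 and 4 to 29, and without 1398P2 replicate 2 the pairs differed at 584 genes. Open shares were 31.5% to 52.3% (RPR2 lines) and 17.6% to 50.9% (1399M4 and 1399P1) of regions specific to 1398M1, and 5.88% to 14.6% and 30.6% to 62.6% of those specific to 1398P2. With equal top-ranked peaks, 5789 and 4201 regions and 343 gene ends of 1398P2 were specific, 66 and 52 genes and 2 list genes were called, and shares were 18.9%, 8.30% and 44.2%. With equal peaks of 3 libraries they were 16850 regions of 1398P2, 379 and 461 gene ends, 622 and 1117 genes, 25 list genes, and 43.4%, 21.7% and 32.2%. Stricter q gave 63.7%, and summit cores 39.5% and 55.5%. Without a filter 0 genes were called in 1398M1, and without scaling 0, where 614 genes had tied values and the prior degrees of freedom fell to 0.697, against 7.97. The spread of all 14 libraries gave 322 and 171. Bins numbered 21 and 20 at a fold of 1.5, and 3 and 1 at 2 Mb. With the replicate block, 105 and 3 genes and 1780 and 2549 regions by pileup were called. The crossed pairing, added after seeing the data, gave 5 and 0. Fits that left out 1 library had 1 residual degree of freedom and assume that the lone library varies like the others. The causes of these changes were not tested.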
